A study of Mus musculus with 103 samples.

Results

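The samples described here are single-cell libraries, called wells, of muscle stem cells from a C57BL/6 mouse aged 3 months, split by whether the transcript of Cd47 was found in them. Of 64 wells labelled with that age, 54 held at least 1000 Ensembl genes at 1 TPM (a transcript's length-corrected share of the total, scaled to 1e+06) or more and were kept. Cd47 stood at 1 TPM or more in 28 of them, the wells with Cd47, and under 1 TPM in 26, the wells without Cd47. The groups were thus selected on the measured Cd47 level. The series holds 103 samples in all: these 64 wells, 31 wells of a mouse aged 24 months, and bulk libraries of 3 young mice (3 months by their age label, though their columns are headed 2mo), of 2 middle-aged animals at 12 and 13 months, and of 3 old ones at 24 months. All samples are labelled untreated and the labels name no engineered allele. The labels call the cells muscle stem cells and, in the design text, myoblasts. They give a culture medium with fibroblast growth factor 2 but do not say whether the wells were filled before or after culture. They name no sort gate, and the RNA protocol they give for wells is the one for bulk samples of many cells. All young wells come from 1 mouse, so wells are not replicates of a condition: the values below describe these wells, and no test between them was made.

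CD47 is a membrane protein of nearly all cells that signals to phagocytes, through their receptor SIRPα, that a cell is not to be engulfed. It also binds thrombospondins, secreted matrix proteins that act on adhesion and growth. In resting muscle the stem cells, marked by the transcription factor Pax7, sit quiet against the fibres, and after injury they divide to repair them. The study the wells belong to asks what elevated Cd47 means in aged muscle stem cells. The wells show in which single-cell libraries of a young animal the transcript was found. Whether a low or absent value reflects the cell or RNA missed in its library was not tested.

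Cd47 (Ensembl ENSMUSG00000055447, chromosome 16, 49800533 to 49915010, plus strand, mm10) spanned a wide range among the wells that held it. In the 28 wells with Cd47 its level was 1.14 TPM at the lowest, 21.1 TPM at the median and 274 TPM at the highest. In the 26 wells without Cd47 the highest value was 0.66 TPM, and 21 wells were listed at 0. The wells just inside the threshold had 1.14, 1.16 and 1.17 TPM, and those just outside had 0.66, 0.38 and 0.34 TPM. Of the wells with Cd47, 11 lay from 1 to under 10 TPM, 14 from 10 to under 100 TPM, and 3 at 100 TPM or more. The split is therefore one of detection, with wells of very low level on its upper side. Found wells made up 51.9% of the 54 (exact Clopper-Pearson 95% interval 37.8 to 65.7%). All such intervals here cover counting error between wells only.

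Wells with Cd47 held somewhat more genes than wells without it. The number of genes found was 1127 at the lowest, 1988 at the median and 3621 at the highest in wells with Cd47, against 1397, 1894 and 2931 in wells without Cd47. The ranges overlap over most of their length. Ordered by the number of genes, Cd47 was found in 8 of the 18 wells with fewest genes (1127 to 1658), in 9 of the middle 18 (1664 to 2106) and in 11 of the 18 with most (2154 to 3621). Spike-in RNA made up a median of 62.1% of TPM in wells with Cd47 (38.2 to 79.3%) and 66.8% in wells without Cd47 (45.2 to 76.8%). Mitochondrially encoded RNA made up a median of 8.27% and 7.99% of Ensembl TPM in the wells with and without Cd47. In the 10 young wells left out, with 7 to 852 genes and 90.6 to 99.98% spike-in RNA, Cd47 was listed at 0 throughout, which allows a share of up to 30% of such wells (3 of 10, the limit used here for a count of 0). Because a fuller well shows more genes, a difference in log2 units given below is adjusted for the logarithm of the number of genes found unless it is called unadjusted. Levels in TPM and counts of wells are as measured.

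**Figure D1:**
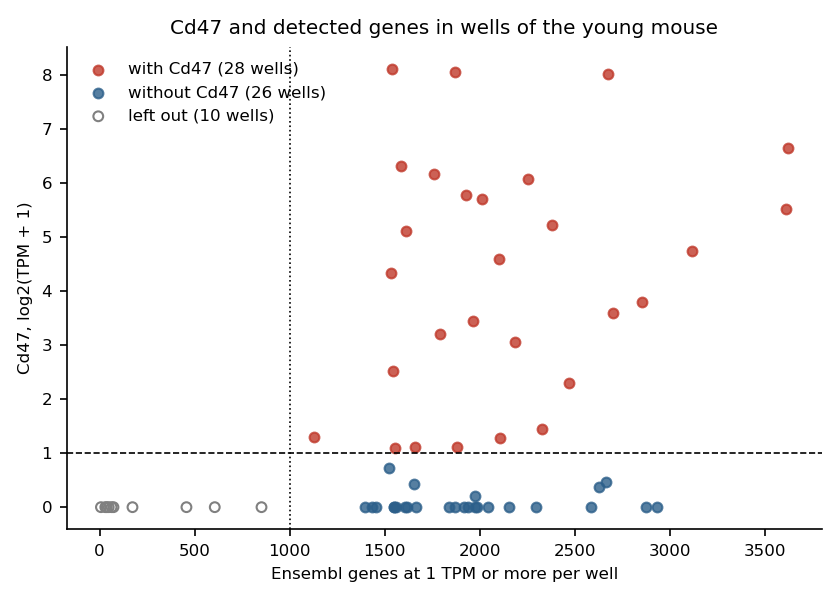
Each point is a well of the young mouse, with the number of Ensembl genes at 1 TPM or more across and the Cd47 level in log2(TPM + 1) up. The dashed line marks the 1 TPM that splits the wells and the dotted line the 1000 genes a well had to hold. The 28 wells with Cd47 (red) and the 26 without (blue) share most of the range of detected genes, and the 10 wells left out (open) are all at 0.

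Wells carry a pair of index names, and every index held wells of both groups. Index N502 held 1 well with and 6 wells without Cd47, and index N708 held 1 well with and 5 wells without. The wells with index N705 had the lowest median number of genes (1569) and those with N703 the highest (2312) among the first indices.

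Markers of muscle stem cells were found unevenly. Sdc4, a heparan sulfate proteoglycan of the muscle stem cell surface, was found in 52 of the 54 wells, the myogenic factor Myf5 in 50, the surface sialomucin Cd34 in 39 and Pax7 in 38. The muscle marker desmin (Des) was found in 29 wells and Calcr, a calcitonin receptor that keeps the cells quiescent, in 24. The cadherin Cdh15 was found in 10 wells, the integrin Itga7 in 8 and Pax3, a relative of Pax7, in 0. Markers that define endothelial cells (Cdh5, Kdr, Cldn5, Emcn), leukocytes (Ptprc, Csf1r, Lyz2, Tyrobp, Laptm5) and red cells (Hba-a1, Hbb-bs) were at 0 in all 54 wells. Other members of these lists were found in single wells or a pair: endothelial Pecam1 in 2 wells with Cd47 and 0 without and Egfl7 in 0 and 1, leukocyte Cd68 (82.6 TPM) and Fcer1g (259 TPM) in 1 and 0 each, and red cell Alas2 in 0 and 1. At 0 throughout was also Ly6a, while Pdgfra stayed under 1 TPM, both being markers of fibroblast-like cells of muscle. The matrix genes Dcn and Col3a1, which fibroblasts also make, were found in 19 and 29 wells. Of smooth muscle and pericyte markers, Acta2 was found in 10 wells with and 11 without Cd47, Tagln in 13 and 9 and Notch3 in 14 and 13, while Rgs5 was found in 0 and 1 and Pdgfrb in 1 and 1. Of fibre markers, Acta1 was found in 3 and 0 wells, Myh1, Mylpf and Tnnc2 in 1 and 0 each, and Atp2a1 in 2 and 1. The fibre genes Ckm, Tnnt3 and Tcap were found in 0 and 1 each. Of proliferation genes, Mki67 was found in 2 and 0 wells, and Ccnb1, Ccnb2, Cdk1, Ccna2, Aurka and Ube2c in 1 and 0 each. Top2a, Birc5 and Mcm2 were found in 1 and 1 each, Rrm2 in 3 and 3 and Mcm3 in 2 and 1. Stmn1 was found in 3 and 2, Pcna in 11 and 9, Mcm7 in 1 and 6, and Mcm4 in 2 and 6. For Mcm6 the counts were 0 and 2, for Mcm5 0 and 1, for Rrm1 1 and 3 and for Tyms 1 and 2.

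Pax7 stood at 0, 21.6 and 228 TPM (lowest, median, highest) in wells with Cd47, against 0, 4.04 and 111 TPM in wells without. It was found in 22 of 28 wells with Cd47 (78.6%, 59 to 91.7%) and 16 of 26 without (61.5%, 40.6 to 79.8%). The intervals overlap, and the adjusted difference, with minus without, was 0.90 log2 units. Myf5 had medians of 567 TPM with and 366 TPM without Cd47 (0.78 log2 units), and Sdc4 had 2477 and 1509 TPM (1.10 log2 units). Vcam1, an adhesion molecule used to isolate muscle stem cells, was found in 15 wells with and 7 without Cd47 (1.15 log2 units). Calcr was found in 13 and 11 wells, but its adjusted difference was -1.07 log2 units. Its wells without Cd47 reached 562 TPM and those with Cd47 240 TPM. The Calcr difference was 0.13 with a Cd47 threshold of 10 TPM and -3.41 among wells with at least 2000 genes. Myod1, the factor of activated cells, was found in 10 wells with and 6 without Cd47 (0.24 log2 units). Cdkn1a, an inhibitor of the cell cycle, was found in 16 and 15 wells (-0.30 log2 units), and Cd34 in 20 and 19 (-0.24 log2 units). None of these 8 genes reached a difference of 2 log2 units, the size (4-fold) at which a gene is counted below.

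Across all genes, the differences left after adjustment were centred near 0. Of 3356 genes found in at least 10 of the 54 wells, 1668 were higher and 1688 lower in wells with Cd47 after adjustment, with a median difference of -0.01 log2 units and quartiles of -0.42 and 0.40. Genes at least 2 log2 units higher in wells with Cd47 numbered 16 (0.477% of those compared), and genes at least 2 log2 units lower numbered 12 (0.358%). Without the adjustment the median was 0.15 and 60.2% of genes lay above 0, with 31 genes past that size upwards and 7 downwards. The adjustment moves the centre of the differences, so the even split does not measure how alike the wells are. When TPM were rescaled to nuclear genes alone, so that spike-in and mitochondrial RNA no longer entered the total, 40 were higher and 52 lower. Rescaling raises every level while 1 TPM is still added before the logarithm, which widens differences by construction. Around the fit, the level of a gene varied between wells by a median SD of 2.40 log2 units, so a difference of 2 units is smaller than the spread of the wells themselves. Besides the genes described next, those past 2 units were Slc43a3 (24 wells with and 13 without Cd47, 2.05), Oser1 (15 and 4, 2.05), Sepp1, Hnrnpf, Paics (11 and 14, -2.29) and 3 pseudogenes.

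**Figure D2:**
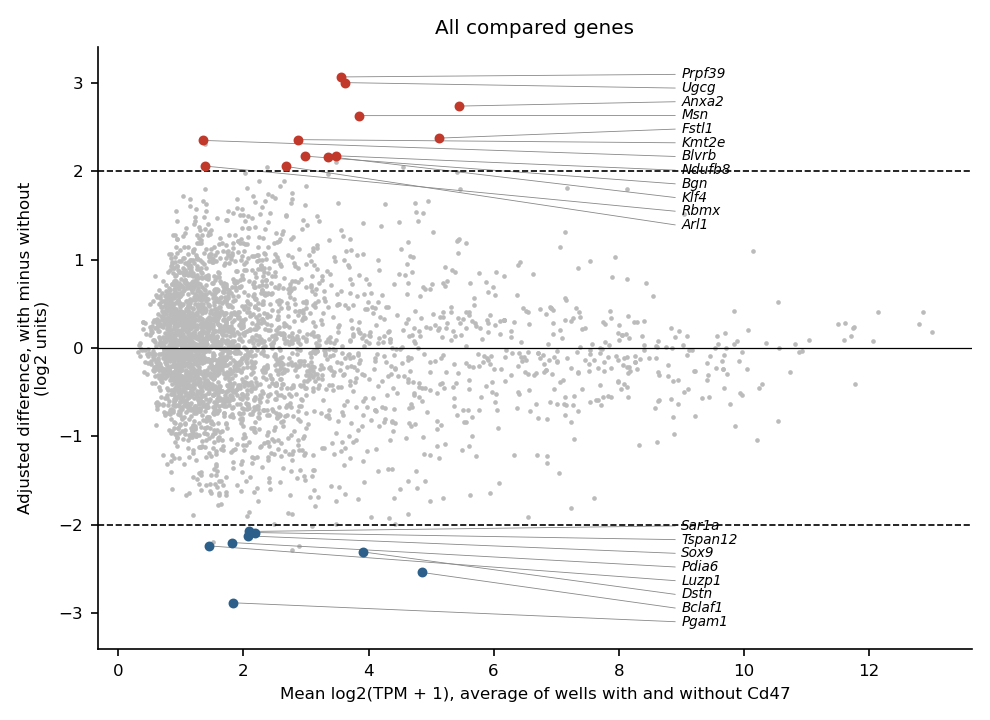
Each point is 1 of the 3356 compared genes, with its mean level in log2(TPM + 1) across and the adjusted difference, wells with minus wells without Cd47, in log2 units up. Dashed lines mark 2 units in each direction, and the 20 named genes are coloured, 12 higher (red) and 8 lower (blue) in wells with Cd47.

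The 12 leading genes on the higher side, taken by the rule for named genes, are given here in an order of function made only for reading, with no test behind it. These genes were chosen by their values in the same wells, so they are a description. They had to differ in share of wells, so a gap between the intervals given for some of them is no separate support. Ugcg, which makes glucosylceramide, the base of glycolipids in the plasma membrane (chromosome 4, 59189257 to 59222833, plus strand), had 0, 81.0 and 633 TPM in wells with Cd47 and 0, 0 and 1149 TPM in wells without. It was found in 22 of 28 and 10 of 26 wells, and the highest well of all was one without Cd47 (adjusted difference 3.01 log2 units). Anxa2, which binds membrane phospholipid in the presence of calcium (chromosome 9, 69453620 to 69491795, plus strand), had 0, 255 and 934 TPM with Cd47 and 0, 16 and 538 TPM without (2.74 log2 units). Anxa2 was found in 25 and 15 wells, with overlapping intervals (71.8 to 97.7% and 36.9 to 76.6%). Msn, the moesin that ties cortical actin to membrane proteins (chromosome X, 96096042 to 96168552, plus strand), had 0, 46.8 and 824 TPM with Cd47 and 0, 0.18 and 388 TPM without (2.63 log2 units). Wells with Msn made up 85.7% (67.3 to 96.0%) of those with Cd47 and 42.3% (23.4 to 63.1%) of those without. Arl1, a small GTPase of the Golgi, was found in 17 and 7 wells (2.06 log2 units).

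Fstl1, a secreted glycoprotein of the follistatin family (chromosome 16, 37776873 to 37836514, plus strand), had 0, 273 and 2416 TPM in wells with Cd47 and 0, 0.91 and 1453 TPM in wells without (2.38 log2 units). It was found in 22 and 13 wells. Bgn, the matrix proteoglycan biglycan, was found in 17 and 8 wells (2.17 log2 units). Its difference came almost wholly from fuller wells: 4.50 log2 units among the 27 wells with more genes and 0.21 among the 27 with fewer, unadjusted. Sepp1, a secreted carrier of selenium, was past 2 units (2.10) and was not among the leading genes because its adjusted difference in share of wells, 18.2 percentage points, was below the 20 required. Serping1, a secreted inhibitor of complement, was found in all 28 wells with Cd47 and 23 wells without (1.81 log2 units). Serping1 is not a leading gene and is itself 1 of the 15 fibroblast markers. Of these, 4 were found often enough to compare, with a median of 0.40: besides Serping1 they were Col3a1 (0.72), Dpt (0.07) and Dcn (-0.52). That median was 1.03 with a Cd47 threshold of 10 TPM and 2.17 among wells with at least 2000 genes. Among the latter wells, Col3a1 differed by 2.63, Dpt by -0.77, Fstl1 by 4.04 and Bgn by 3.94. The summed level of all 15 was 18.8, 505.5 and 1532 TPM (lowest, median, highest) with Cd47 and 2.93, 388 and 1406 TPM without. Their part in the values of Fstl1 and Bgn was not tested.

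Prpf39, a splicing factor that works with the U1 small nuclear ribonucleoprotein (chromosome 12, 65036333 to 65063386, plus strand), had 0, 98.7 and 371 TPM in wells with Cd47 and 0, 0.815 and 180 TPM in wells without. Its adjusted difference of 3.07 log2 units was the largest among the 3356 genes. It was found in 24 and 13 wells, with overlapping intervals (67.3 to 96.0% and 29.9 to 70.1%). Prpf39 overlaps the gene Fkbp3, whose own difference was 1.36 log2 units, and the strand used in counting is not given in the sources used here, so reads of both may mix. Klf4, a Kruppel-like transcription factor (chromosome 4, 55527143 to 55532466, minus strand), had 0, 30.2 and 314 TPM with Cd47 and 0, 0 and 237 TPM without (2.17 log2 units). It was found in 24 of 28 wells with Cd47 (85.7%, 67.3 to 96.0%) and 12 of 26 without (46.2%, 26.6 to 66.6%). Rbmx, an RNA-binding protein of the heterogeneous nuclear ribonucleoprotein class, was found in 13 and 2 wells (2.06 log2 units). Kmt2e, a chromatin protein whose locus overlaps Srpk2, was found in 19 and 7 wells (2.36 log2 units).

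Blvrb, a biliverdin reductase of haem breakdown, was found in 11 wells with Cd47 (39.3%, 21.5 to 59.4%) and 1 without (3.85%, 0.0973 to 19.6%), with 331 and 20.5 TPM at the highest and 0 TPM at the median of both groups (2.35 log2 units). With a Cd47 threshold of 10 TPM the Blvrb difference was 0.10 log2 units. Ndufb8, a subunit of respiratory complex I whose locus overlaps another coding gene model, was found in 17 and 8 wells (2.18 log2 units).

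On the lower side, 8 genes met the rule. Pgam1, the glycolytic enzyme phosphoglycerate mutase (chromosome 19, 41911923 to 41918660, plus strand), was found in 4 of 28 wells with Cd47 (14.3%, 4.03 to 32.7%) and 12 of 26 without (46.2%, 26.6 to 66.6%). It reached 23.1 TPM with Cd47 and 382 TPM without, and its adjusted difference was -2.89 log2 units. A processed pseudogene of it, Pgam1-ps2, was found in 3 and 9 wells (-1.89 log2 units), so the authors' quantification may have divided reads between them and the level of each is uncertain. Bclaf1, a nuclear factor linked with RNA processing (chromosome 10, 20312469 to 20344613, plus strand), had 0, 17.1 and 515 TPM with Cd47 and 0, 186 and 879 TPM without (-2.54 log2 units). Found wells numbered 16 and 21. Dstn, the actin-severing protein destrin, had medians of 2.21 TPM with and 41.4 TPM without Cd47 (-2.31 log2 units), with the highest well, 1211 TPM, among those with Cd47.

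Pdia6, a protein disulfide isomerase of the endoplasmic reticulum whose locus overlaps Atp6v1c2, was found in 4 wells with Cd47 (14.3%, 4.03 to 32.7%) and 13 without (50.0%, 29.9 to 70.1%; -2.20 log2 units). Sar1a, the GTPase that starts transport vesicles at the endoplasmic reticulum, was found in 9 and 16 wells (-2.08 log2 units). Sox9, a transcription factor best known from cartilage (chromosome 11, 112782224 to 112787760, plus strand), had 0, 0 and 86.9 TPM with Cd47 and 0, 7.71 and 230 TPM without (-2.13 log2 units). Sox9 was found in 8 and 14 wells. Luzp1, whose locus overlaps Kdm1a, was found in 3 and 11 wells (-2.24 log2 units), and Tspan12, a tetraspanin of the membrane, in 5 and 11 (-2.09 log2 units).

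Each of the 20 leading genes was listed at 0 in some wells of both groups, and for all 20 the ranges of the groups overlapped. For 18 of the 20 the adjusted difference was smaller than the SD of the wells around the fit, which ran from 2.33 to 3.85 log2 units. Besides Bgn, some differed unevenly between the wells with fewer and with more genes, unadjusted. Dstn had -3.63 and -0.66, Luzp1 -0.83 and -3.44, Ndufb8 1.07 and 3.48, and Msn 4.01 and 1.65. Others were close, such as Sar1a (-1.92 and -2.01) and Rbmx (1.97 and 2.18). A well with Cd47 held a median of 8.5 of the 12 higher genes (3 to 11), and a well without Cd47 held 4 (1 to 8). For the 8 lower genes the medians were 2 (0 to 5) and 4 (2 to 8). These counts are fixed by the choice of the genes, which had to differ in share of wells. Levels among the wells that held a gene differed for some as well: Prpf39 had a median of 106 TPM in such wells with Cd47 and 15.7 TPM in those without, Pgam1 13 and 163 TPM, and Kmt2e 89.5 and 88.2 TPM.

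**Figure D3:**
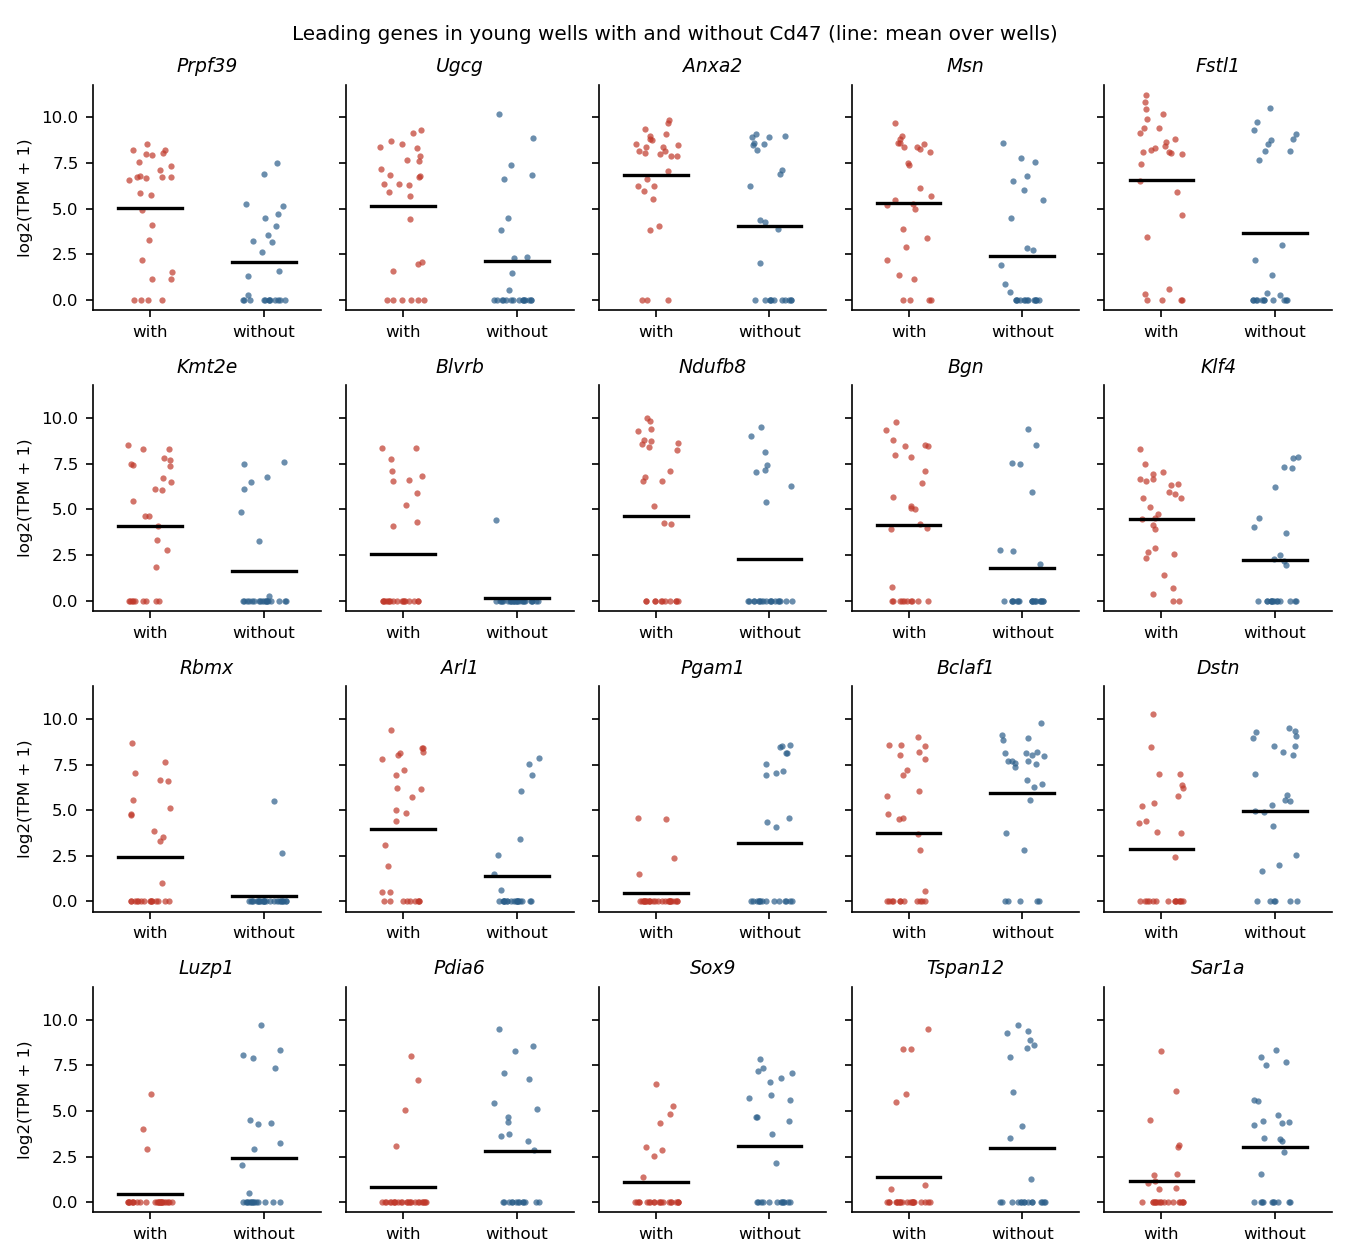
Each panel is 1 of the 20 leading genes, with wells with Cd47 (28, red) left of wells without (26, blue) and the level in log2(TPM + 1) up; the line is the mean over wells. In each panel wells of both groups sit at 0, and the groups overlap; in panels Prpf39 to Arl1 more wells with Cd47 lie above 0, and in panels Pgam1 to Sar1a more wells without.

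Of a list of 31 ligands, partners and other signals to phagocytes, 11 were found in 10 wells or more, among them the G protein subunit Gnb1 (24 wells with and 22 without Cd47) and the integrin chain Itgb1 (15 and 11). The thrombospondin Thbs1 was found in 0 of 28 wells with Cd47 and 2 of 26 without, and the receptor Sirpa was at 0 in all 54 wells. Both were present in the bulk libraries of young mice, at 12.7 ± 1.06 TPM for Thbs1 and 21 ± 14.7 TPM for Sirpa (SD, n = 3). Among the 11 compared genes, 0 passed 2 log2 units in either direction, 1 was at least 1 unit higher and 2 at least 1 unit lower, against 6.82% and 6.91% of all genes, with a median of 0.01. The smaller size of 1 log2 unit (2-fold) for lists was chosen after the counts at 2 units were seen. The gene at least 1 unit higher was Cav1, the caveolin of membrane pits, found in 20 wells with and 12 without Cd47 (1.38). With Cd47 thresholds of 5 and 10 TPM the Cav1 difference was 0.43 and -0.47. Those at least 1 unit lower were Set, an inhibitor of a protein phosphatase that also takes part in CD47 trafficking in human cells, found in 22 and 22 wells (-1.53), and B2m, the light chain of MHC class I, found in 22 and 24 (-1.21).

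RNA processing bears on Cd47 because its transcript ends at alternative polyadenylation sites. The list of U1 components and polyadenylation factors had 16 of 30 genes compared and a median of 0.03 log2 units. Beside the counts at 1 unit in this paragraph stand 6.82% of all genes higher and 6.91% lower. At 1 unit, 1 was higher (Snrpd1, a core small nuclear ribonucleoprotein, 18 wells with and 10 without Cd47, 1.76) and 1 lower (Pabpc1, the cytoplasmic poly(A)-binding protein, 23 and 24 wells, -1.02). Snrnp70, the U1 protein itself, was found in 17 and 12 wells (0.08). Of 32 SR and hnRNP splicing factors, 1 was at least 1 unit higher, Luc7l2 (20 and 16 wells, 1.11), and 9 were at least 1 unit lower, against 6.91% of all genes on that side. The lower ones included Hnrnpf (13 and 14 wells, -2.02), Hnrnpu (14 and 21, -1.68), Tra2b (24 and 25, -1.67), Srsf3 (22 and 23, -1.64) and Hnrnpa1 (23 and 25, -1.59). For Hnrnpf, Tra2b and Srsf3, the wells that held the gene were nearly as many in both groups, and the levels were lower. The median of the list was -0.05, since 15 factors lay above 0 and 17 below.

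The state of the cells was followed with lists for identity, activation and growth arrest. Muscle stem cell and quiescence genes had 28 of 35 compared, a median of 0.10, 2 at least 1 unit higher (Vcam1 and Sdc4) and 1 at least 1 unit lower (Calcr). Beside the counts at 1 unit in this paragraph stand 6.82% of all genes higher and 6.91% lower. The list for myogenic activation had 9 of 25 compared and a median of 0.24. At 1 unit, 3 were higher and 0 lower. Among the higher ones were Id3, an inhibitor of myogenic factors (27 wells with and 22 without Cd47, 1.80), and the E protein Tcf4 (25 and 19, 1.04). Among p53 targets and cycle inhibitors, 7 of 25 were compared, with a median of 0.32. Trp53 itself was found in 13 and 5 wells (1.51) and its target kinase Plk2 in 14 and 6 (1.13), while Mdm2 was found in 7 and 8 (-0.32). The summed level of that list was 7.2, 498 and 1725 TPM in wells with Cd47 and 6.27, 145 and 644 TPM in wells without, so that the groups overlap with the highest wells among those with Cd47. Of 30 cell cycle genes 5 were compared, and 0 differed by 1 unit.

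Immediate early genes respond within minutes to stimuli and to the isolation of cells. Of 50, 45 were compared, with a median of 0.02; 3 were at least 1 unit higher and 3 lower in wells with Cd47, near the 6.82% and 6.91% of all genes. The higher ones were Klf4, Zfp36l1, which destabilises mRNA (27 and 20 wells, 1.67), and the phosphatase Dusp1 (23 and 17, 1.52). The lower ones were Myc (15 and 17, -1.51), the chaperone Hspa5 (23 and 23, -1.42) and Jun (23 and 22, -1.16). Fos had 0, 921 and 7747 TPM with Cd47 and 0, 768 and 5744 TPM without (0.42); unadjusted, it was lower by 2.22 among the 27 wells with fewer genes and higher by 3.56 among the 27 with more. Egr1 was found in 27 and 26 wells (-0.24). With a Cd47 threshold of 10 TPM the median of the list was 0.79, with Fos at 1.70, Egr1 at 0.94, Jun at 0.41 and Myc at -2.61. The long noncoding RNA Malat1 was found in every kept well, at medians of 9444 and 8821 TPM (0.19).

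**Figure D4:**
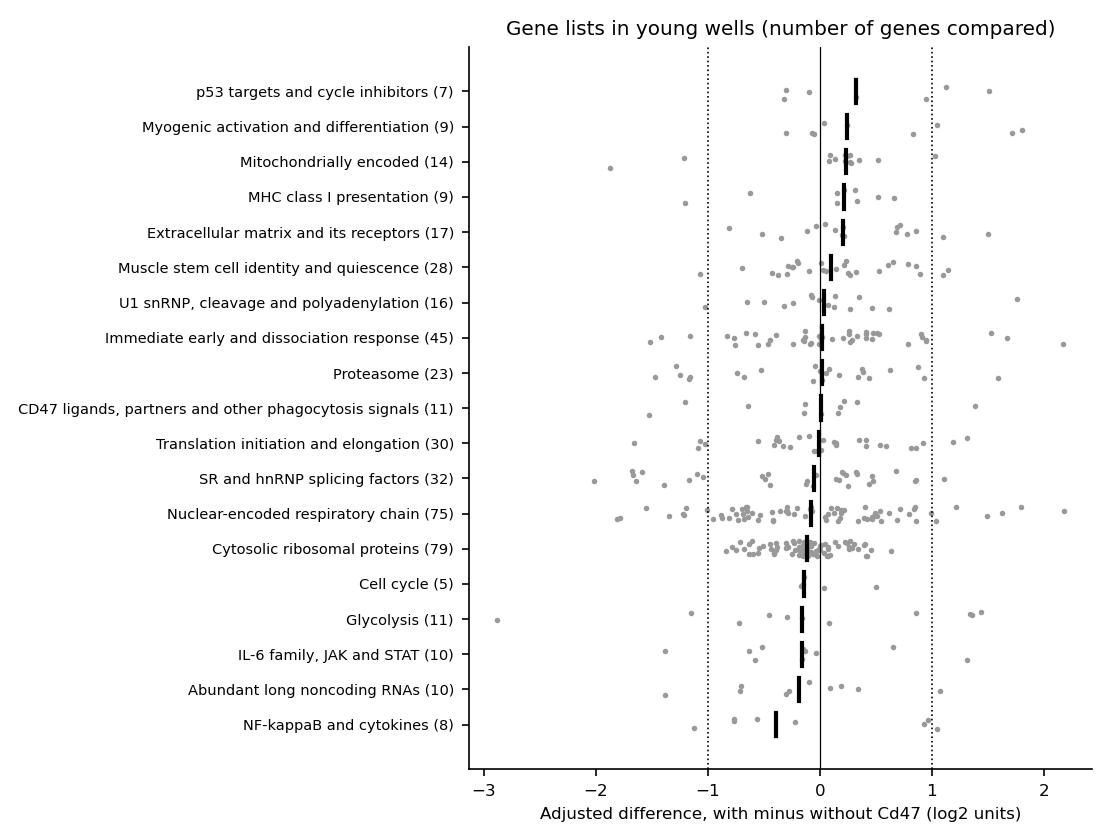
Each row is a gene list with at least 5 compared genes (number in brackets), each grey point a gene at its adjusted difference, wells with minus wells without Cd47, in log2 units, and the black bar the list's median. Dotted lines mark 1 unit in each direction. Medians run from -0.39 for NF-kappaB genes and cytokines to 0.32 for p53 targets and cycle inhibitors.

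Metabolic and housekeeping lists were centred near 0, and their counts at 1 unit stand beside 6.82% of all genes higher and 6.91% lower. Of 11 compared glycolytic genes, Aldoa (22 wells with and 18 without Cd47, 1.44), Pfkp (14 and 7, 1.36) and Pgk1 (12 and 6, 1.34) were at least 1 unit higher, and Pgam1 and Ldha (11 and 13, -1.15) at least 1 unit lower, with a median of -0.16. Of 75 compared genes of the respiratory chain, 6 were at least 1 unit higher and 8 lower (median -0.08). The list ran from Cox6a1 (21 and 25 wells, -1.81) to Ndufb8 (2.18), with Ndufa6 (25 and 19 wells) at 1.80. Unadjusted, Cox6a1 differed by -3.57 among the 27 wells with fewer genes and 0.47 among the 27 with more. For Ndufa6 these values were 0.71 and 3.15. Beside the counts above 0 in this paragraph stand 49.7% of all compared genes. Of 79 compared ribosomal proteins, 26 lay above and 53 below 0, with a median of -0.12 and a range of -0.84 to 0.64. Over the alternative settings given at the end, the ribosomal median ran from -0.25 to 0.09 and the median of mitochondrially encoded transcripts from -0.08 to 0.37. Of 14 mitochondrially encoded transcripts, 12 lay above 0 (median 0.23), and the exceptions mt-Co3 (16 and 18 wells, -1.22) and mt-Nd3 (12 and 17, -1.88) were found in far fewer wells than the rest. Unadjusted, mt-Co3 differed by 1.63 among wells with fewer genes and -4.34 among those with more, and mt-Nd3 by -2.65 and -1.04. Proteasome subunits had a median of 0.02, with 1 at least 1 unit higher, Psmd11 (15 and 7, 1.59), and 5 lower among 23. Translation factors had a median of -0.01 over 30 genes, with 2 higher and 4 lower by that size.

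Matrix and immune lists add a few genes. Beside the counts at 1 unit in this paragraph stand 6.82% of all genes higher and 6.91% lower. Of all compared genes, 49.7% lay above 0. Of 17 compared genes for matrix and its receptors, 12 lay above 0 (median 0.20). That median was -0.03 with a Cd47 threshold of 5 TPM and 0.99 among wells with at least 2000 genes. The 2 at least 1 unit higher were Col4a1, a basement membrane collagen (16 and 7 wells, 1.5), and Sdc4. Genes of the IL-6 family and its JAK and STAT proteins had 10 compared, a median of -0.16, Socs2 at least 1 unit higher (10 and 3 wells, 1.32) and the receptor Osmr at least 1 unit lower (12 and 17, -1.38). NF-kappaB genes and cytokines had 8 compared, with a median of -0.39, which was 0.19 with a Cd47 threshold of 10 TPM and -1.94 among wells with at least 2000 genes. MHC class I genes had 9 compared, with a median of 0.22, which was -1.24 among wells with at least 2000 genes. Long noncoding RNAs had 10 compared and a median of -0.19. Of 10 smooth muscle and pericyte markers 3 were compared (median -0.20), with Acta2 at least 1 unit lower (10 and 11 wells, -1.02), and of 12 Schwann cell markers 1, Pmp22, a myelin protein also made elsewhere, in 20 wells with and 9 without Cd47 (1.10). The Pmp22 difference was -0.19 with a Cd47 threshold of 10 TPM. Of the endothelial, leukocyte, red cell and fibre markers 0 were found often enough to compare.

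The wells of the old mouse give little to set beside these. Of 31, 7 passed 1000 genes, and Cd47 was found in 3 of them, at 5.69, 22.8 and 34.7 TPM. Those 3 held 2083 to 2950 genes and the 4 without Cd47 held 1041 to 1820, so Cd47 and the number of genes cannot be told apart there and no difference was computed. The leading genes went both ways in these wells. Of the higher ones, Msn was found in 2 of 3 wells with and 1 of 4 without Cd47, Fstl1 in 3 of 3 and 3 of 4, and Kmt2e in 2 of 3 and 4 of 4. Of the lower ones, Pgam1 was found in 0 of 3 and 1 of 4, and Bclaf1, Sar1a and Tspan12 each in 2 of 3 and 0 of 4. In the bulk libraries of 3 young mice, which hold no spike-in RNA and whose TPM are thus on another scale, Cd47 stood at 75.6 ± 10.4 TPM (SD, n = 3), Msn at 153 ± 11 TPM, Anxa2 at 63.2 ± 12.9 TPM, Klf4 at 104 ± 13.3 TPM and Bclaf1 at 291 ± 27.2 TPM. Blvrb was listed there at 7.76, 0 and 8.78 TPM and Sox9 at 5.87, 0 and 6.71 TPM.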

How the data were processed

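The authors deposited TPM (length-corrected transcript shares) per gene for each well and each bulk library. Per the submitters' processing notes, reads were aligned with STAR to mm10. Not given in the sources used here: versions, annotation, strandedness and quantification tool. Columns were matched to samples by titles and, in the bulk table, descriptions. The table of wells holds 45797 entries: 43282 Ensembl genes, 92 spike-in RNAs and 2423 entries without an Ensembl ID, which were left out. GENCODE vM21 held 42781 of these IDs and gave positions on mm10. TPM are shares of a total that includes spike-in RNA; they keep no read counts, so depth is unknown, wells could not be thinned to a common depth and doublets were not called.

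The members, gene lists and size thresholds were chosen with earlier results of these data known. For each gene at 1 TPM or more in at least 10 of the kept wells, a least-squares fit of log2(TPM + 1) with a term for Cd47 status and a term for log2 of the number of genes found gave the adjusted difference; a difference on this scale understates the change of low genes. Shares of wells were adjusted in the same way. Leading genes were those past 2 log2 units with an adjusted share difference of at least 20 percentage points and the same sign among the 27 wells with fewer and the 27 with more genes; the 12 largest per direction were taken, without pseudogenes and predicted models. In addition, 16 genes were always named, and up to 4 genes with the largest differences from each of 26 lists; other members of a list at 1 unit or more, and Slc43a3, Oser1, Paics, Sepp1, Mdm2, Luc7l2, Hnrnpa1 and the marker genes given by counts of wells, were named after their values were seen. The fit was tested on simulated data. Cells are not replicates and all young wells share 1 mouse, so no p-value was computed. The fits used numpy 2.4.6 under Python 3.11.15, the intervals scipy 1.17.1, the tables pandas 2.3.3 and the figures matplotlib 3.10.9. A gene that a list would have named is not reported here.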

Additional observations from a re-analysis of the deposited data

How the results depend on the processing

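No paired analysis was possible because all wells compared come from 1 mouse and carry no shared replicate number. The counts of genes past 2 log2 units (16 higher and 12 lower in wells with Cd47) moved with the scale and the number of wells. They were 97 and 97 with a pseudocount of 0.1, 0 and 0 with a pseudocount of 10, 40 and 52 after rescaling to nuclear genes, and 98 and 85 among the 22 wells with at least 2000 genes (14 with and 8 without Cd47). With no term for detected genes they were 31 and 7, and as the mean within wells with fewer and with more genes 26 and 9. A Cd47 threshold of 5 TPM gave 19 and 23, and 10 TPM gave 35 and 21. Genes found in at least 20 wells gave 12 and 7. Terms for the first index gave 20 and 19, and terms for the second index 21 and 22. At a size of 1 log2 unit, chosen after seeing the data, they were 229 and 232. Leaving out the wells of each index in turn gave 16 to 28 higher and 12 to 27 lower. The other alternatives, wells with at least 500 genes, a squared term, the shared range of detected genes, genes found in at least 5 wells or in 1, and, chosen after seeing the data, the spike-in share as a term, kept both counts within 1.5 times. The cause of these moves was not tested, apart from the smaller scale that a larger pseudocount gives by construction. Rescaling to nuclear genes raises TPM while the pseudocount stays at 1, so by construction it acts as a smaller pseudocount does. Of the 12 and 8 leading genes, 4 and 2 were still past 2 units with a Cd47 threshold of 5 TPM and 4 and 1 with 10 TPM. Of 21 list medians, 18 lay on both sides of 0 over the alternatives. The medians for fibroblast markers ran from 0.06 to 2.17, for myogenic activation from 0.04 to 1.28 and for p53 targets from 0.04 to 0.82. Those for MHC class I ran from -1.24 to 0.47 and for NF-kappaB genes from -1.94 to 0.19. For immediate early genes they ran from -0.14 to 0.79, and for ligands, partners and signals to phagocytes from -0.44 to 0.91. The difference in the median number of genes found, with minus without Cd47, was 94 and was -181 among wells with at least 2000 genes, 134 with 500 genes, and 183 and 222 with Cd47 thresholds of 5 and 10 TPM, all within 1 SD of the wells. The split repeated in the old mouse was not run, for the reason given with its wells.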
